A study of Mus musculus with 12 samples.

Results

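Metallothioneins and genes of zinc transport were followed through mouse epidermis and skin papillomas given camphor white oil or its vehicle. The 8 genes were chosen by name among 23235 measured gene symbols: the metallothioneins Mt1, Mt2, Mt3 and Mt4, the metal-sensing transcription factor Mtf1, and the zinc transporters Slc30a1, Slc39a4 and Slc39a10. All 8 were found, each as 1 entry per library. PolyA RNA came from FVB/NJ mice in 12 libraries, with 3 in each of 4 groups. For epidermis, skin shaved a week before received 400 µL of acetone vehicle or of 20% camphor white oil (CWO), an oil distilled from the camphor tree. The epidermis was lifted after 24 h with 3.8% ammonium thiocyanate for 40 min. The labels name 5 mice for this step, do not give their age, and say that the 3 samples of best RNA integrity per treatment were sequenced. Papillomas are benign skin tumours, and these were raised on mice shaved at 6 to 7 weeks of age with 400 nmol of the carcinogen DMBA and then 10 nmol doses of the tumour promoter TPA. Both papilloma groups carry this history, followed by 6 weeks of 20% CWO or acetone vehicle, and each library pools 4 tumours of 1 mouse. The labels name neither DMBA nor TPA for epidermis, so tissue, tumour induction, time under treatment and dissection cannot be told apart between tissues.

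Metallothioneins are small cysteine-rich proteins that bind zinc and copper and so buffer the free metal in a cell. When free zinc rises, Mtf1 binds short metal response elements in DNA and raises transcription of Mt1, Mt2 and Slc30a1, the exporter that moves zinc out across the plasma membrane. Mt1 and Mt2 are made in most tissues and also respond to glucocorticoids and stress, Mt3 is known mainly from brain, and Mt4 from the differentiating layers of stratified squamous epithelium such as epidermis. Slc39a4 and Slc39a10 import zinc. Inherited loss of the human counterpart of Slc39a4 causes acrodermatitis enteropathica, a zinc deficiency with skin lesions.

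The 4 metallothionein genes lie side by side on mouse chromosome 8 within 43.1 kb. In mm9, the build of the deposited files, Mt4 spans chr8:96661104-96662931, Mt3 chr8:96676507-96678048, Mt2 chr8:96696518-96697467 and Mt1 chr8:96702989-96704227. The other members are spread over the genome: Mtf1 at chr4:124479793-124527044, Slc30a1 at chr1:193730660-193737126, Slc39a4 at chr15:76442813-76447282 and Slc39a10 at chr1:46864389-46910354. These are whole gene spans, introns and UTRs included.

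Promoters are shown for the 4 members that hold a metal response core in the window searched, since this is the element through which Mtf1 acts. The counts are of matches in that window and do not give the number of elements a gene carries. Bases downstream of the annotated start were not searched, so the counts do not rank the genes by their elements. The sequences are the 250 bases upstream of the RefSeq start site on the GRCm38.p6 build, the gene strand read 5′ to 3′. They are chr8:94178839-94179088 for Mt1, chr8:94172368-94172617 for Mt2, chr8:94136954-94137203 for Mt4 and chr1:191906531-191906780 for Slc30a1, all on the plus strand. Capitals mark each match to the core, TGCACNC or TGCGCNC, searched on both strands. No match overlaps another.
Mt1: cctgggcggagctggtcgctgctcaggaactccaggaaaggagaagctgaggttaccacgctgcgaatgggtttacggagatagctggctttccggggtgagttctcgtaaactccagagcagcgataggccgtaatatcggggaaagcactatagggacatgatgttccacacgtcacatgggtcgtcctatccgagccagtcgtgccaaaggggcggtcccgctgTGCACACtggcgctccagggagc
Mt2: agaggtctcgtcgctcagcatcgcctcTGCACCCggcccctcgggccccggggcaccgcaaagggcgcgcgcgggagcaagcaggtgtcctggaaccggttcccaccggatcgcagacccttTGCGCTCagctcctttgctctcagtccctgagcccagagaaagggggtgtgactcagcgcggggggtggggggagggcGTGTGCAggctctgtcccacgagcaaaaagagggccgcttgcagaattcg
Mt4: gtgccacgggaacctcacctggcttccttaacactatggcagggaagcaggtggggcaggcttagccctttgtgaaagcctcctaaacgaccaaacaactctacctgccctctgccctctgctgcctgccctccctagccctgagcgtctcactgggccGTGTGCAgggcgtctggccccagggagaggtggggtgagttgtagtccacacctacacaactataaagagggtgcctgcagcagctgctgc
Slc30a1: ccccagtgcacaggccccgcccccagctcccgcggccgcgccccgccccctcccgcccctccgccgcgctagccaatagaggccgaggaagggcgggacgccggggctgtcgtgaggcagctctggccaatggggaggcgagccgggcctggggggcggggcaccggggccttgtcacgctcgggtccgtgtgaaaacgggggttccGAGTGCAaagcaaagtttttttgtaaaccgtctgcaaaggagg

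Of the 8 members, 7 had an entry in the RefSeq promoter table; Slc39a4 had none. Mt2 held 3 matches, starting at positions -223, -128 and -50 from the start site, the last on the other strand. Mt1 held 1 match starting at -23, Mt4 held 1 at -91 and Slc30a1 held 1 at -43, both of the latter on the other strand. Mt3, Mtf1 and both listed starts of Slc39a10 held 0 in this window. Among 32851 promoter windows of the same length, 21.4% held at least 1 match and 1.26% held at least 3, so 1 match is common and 3 are not. The RefSeq span of Mt1 is 1445 bases against 1239 in the deposited files. For Mt1, Mt2, Mt3 and Mt4, however, the file start and the window end differ by the same offset between builds. The Mt1 window therefore ends at the start the files use. Whether transcription in these tissues begins there was not tested. Spans also differed for Slc30a1 (6552 against 6467 bases) and Slc39a10 (118233 against 45966). Whether their windows end at the start in the files was not tested. A match is a stretch of letters, and binding was not measured.

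**Figure D1:**
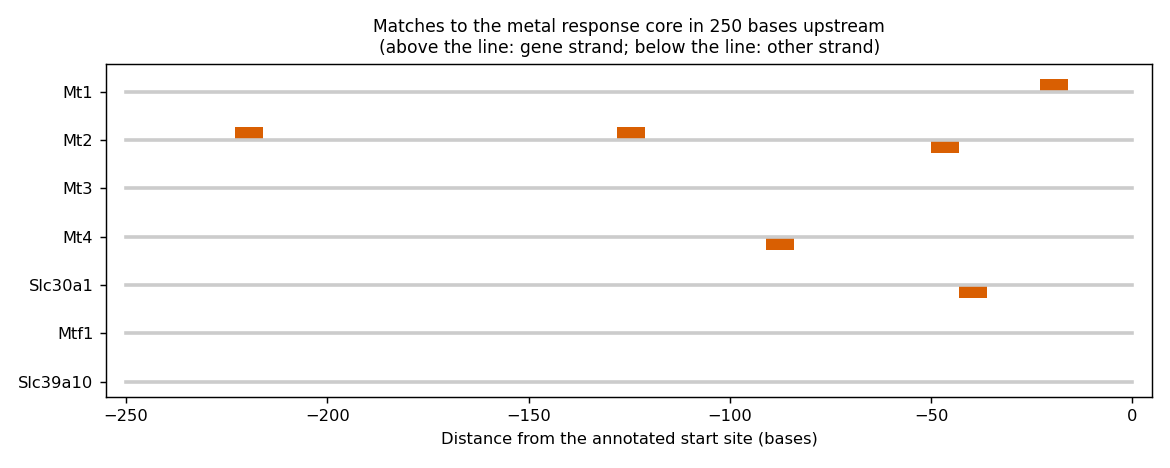
Positions of matches to the metal response core in the 250 bases upstream of the RefSeq start site (horizontal axis, bases from the start) for the 7 members with a promoter entry, each a grey line, with both starts of Slc39a10 on 1 line. Boxes above a line are on the gene strand and boxes below it on the other strand; Mt2 holds 3, Mt1, Mt4 and Slc30a1 hold 1 each, and Mt3, Mtf1 and Slc39a10 hold 0.

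Levels are the deposited FPKM, fragments scaled to transcript length and library size. They are per length, so a comparison between genes depends on the length used for each, most of all for short transcripts. The libraries held 11.1 to 24.6 M (mega) recovered fragments each, and each detected 11838 to 12452 genes at 1 FPKM or more. All 8 keratinocyte markers found in the files were at an FPKM of 1 or more in every library, with summed levels of 25837 to 40244 FPKM. Skeletal muscle markers stood apart in epidermis: vehicle libraries 1 and 2 had summed levels of 11897 and 18873 FPKM over 13 genes, against 3188 to 4156 in the other 4 epidermis libraries and 9.47 to 433 in papillomas. In bulk tissue, fewer cells of a type and less RNA per cell cannot be told apart.

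Mt1 and Mt2 were abundant in every library. Mt1 measured 638, 523 and 468 FPKM in vehicle-treated epidermis and 697, 822 and 519 with CWO, and 312, 335 and 300 FPKM in vehicle-treated papillomas and 287, 386 and 337 with CWO. All 6 epidermis libraries lay above all 6 papilloma libraries, while the treatments overlapped within each tissue. Mt2 measured 575, 447 and 529 FPKM in vehicle epidermis and 874, 898 and 723 with CWO, and 298, 353 and 299 FPKM in vehicle papillomas and 319, 401 and 312 with CWO. For Mt2 the CWO and vehicle epidermis libraries did not overlap, and the lowest epidermis library was above the highest papilloma library. By group mean both genes ran in the order epidermis with CWO, epidermis with vehicle, papilloma with CWO, papilloma with vehicle, and the papilloma groups did not differ beyond their spread. These values rest on at least 1583 fragments per gene and library.

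Mt4, the squamous-epithelium metallothionein, was the most abundant of the 4 by FPKM in vehicle-treated epidermis and far lower in papillomas. It measured 999, 991 and 973 FPKM in vehicle epidermis, a narrow spread, and 720, 1078 and 959 with CWO. In papillomas it measured 46.0, 73.0 and 71.6 FPKM with vehicle and 27.1, 55.1 and 34.5 with CWO. Ranked among all genes by FPKM, Mt4 was between 69th and 128th in the epidermis libraries and between 1178th and 3079th in the papilloma libraries. The Mt4 transcript is short: its FPKM and fragment numbers together give a length of 180 bases to the quantifier, against 330 for Mt1 and 344 for Mt2. A given FPKM of Mt4 thus rests on fewer fragments. Among vehicle epidermis libraries, its fragments exceeded those of both Mt1 and Mt2 only in library 2, at 1976 against 1914 and 1704. Its papilloma values rest on 102 to 263 fragments, against 1976 to 4304 in vehicle epidermis.

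Mt3 was a trace in epidermis and close to nothing in papillomas. It measured 4.19, 2.77 and 2.87 FPKM in vehicle epidermis and 4.47, 4.70 and 4.62 with CWO, from 10 to 28 fragments. In vehicle papillomas it was listed at 0, 0.918 and 0.156 FPKM, and with CWO at 0, 0.181 and 0, from at most 6 fragments. Per length, Mt3 in vehicle epidermis was far below each of its 3 neighbours in the cluster.

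Mtf1, the zinc sensor, was low in all groups. It measured 4.30, 4.77 and 5.05 FPKM in vehicle epidermis and 4.72, 5.49 and 5.19 with CWO, against 6.44, 6.35 and 6.35 in vehicle papillomas and 6.17, 6.60 and 5.84 with CWO. Every papilloma library lay above every epidermis library, by a small margin at the boundary of 5.49 and 5.84 FPKM.

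The exporter Slc30a1 had similar levels in all groups: 17.1, 19.7 and 19.3 FPKM in vehicle epidermis, 20.2, 24.1 and 25.0 with CWO, 15.9, 22.1 and 22.7 in vehicle papillomas and 20.3, 20.8 and 19.9 with CWO. Its papilloma libraries fell among the epidermis libraries of both treatments except vehicle papilloma 1, the lowest of the 12. The importer Slc39a10 measured 6.59, 6.72 and 8.51 FPKM in vehicle epidermis and 6.87, 7.65 and 8.03 with CWO, and 13.2, 17.8 and 13.3 in vehicle papillomas and 9.75, 11.5 and 15.1 with CWO. All papilloma libraries of Slc39a10 lay above all epidermis libraries. Slc39a4 was below 1 FPKM in all 12 libraries: 0.359, 0.270 and 0.649 in vehicle epidermis, 0.698, 0.901 and 0.501 with CWO, 0.193, 0.373 and 0.152 in vehicle papillomas and 0.381, 0.353 and 0.372 with CWO. Those values rest on 6 to 33 fragments.

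**Figure D2:**
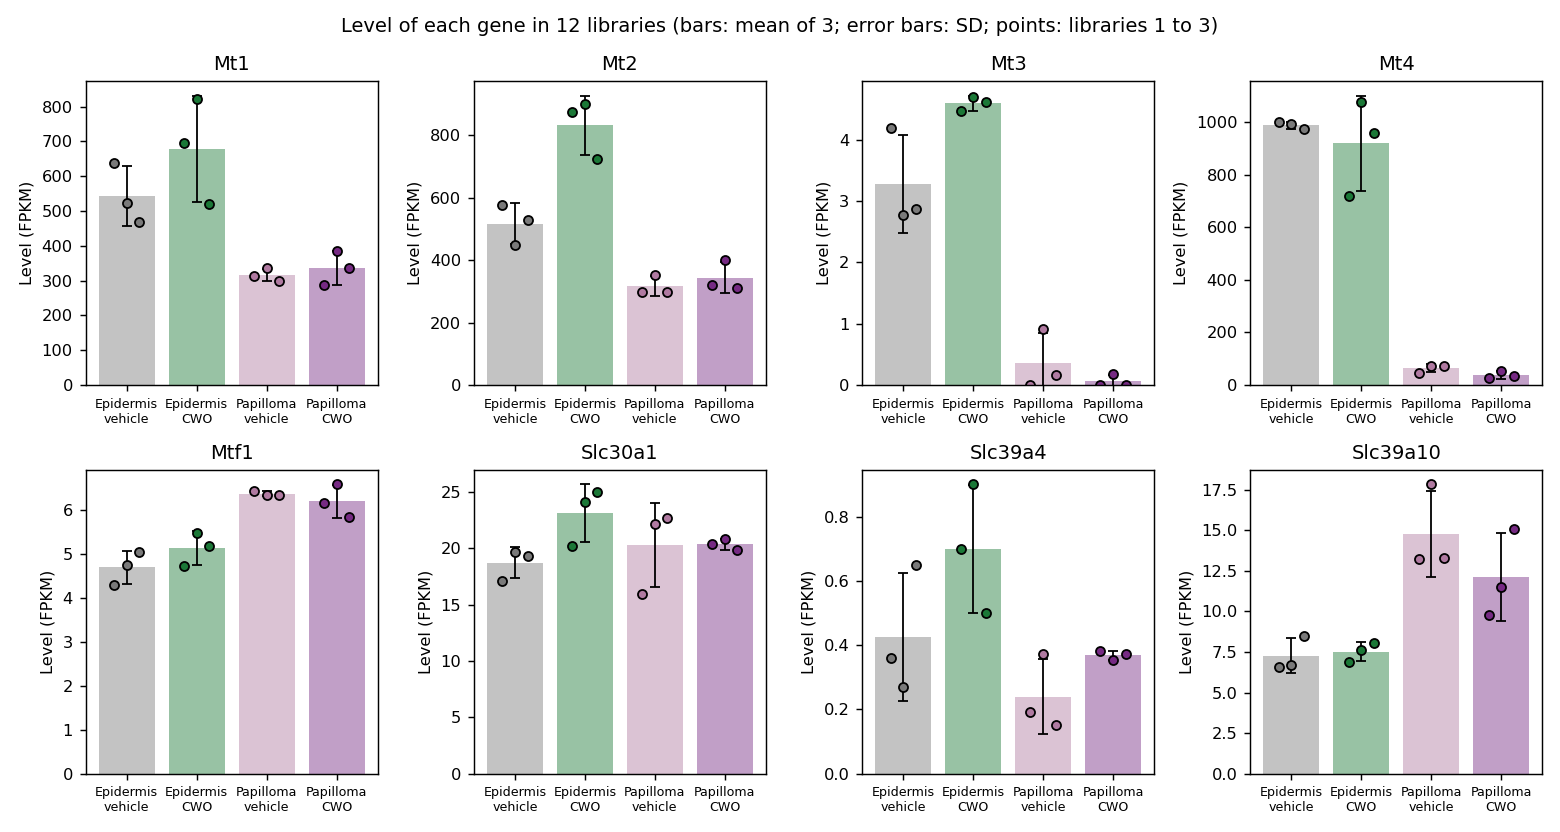
Level of each of the 8 genes (vertical axis, FPKM, each panel with its own linear scale from 0) in the 4 groups, with points for the 3 libraries, bars for the mean and error bars for the SD, which are not drawn below 0. Mt4 falls from bars near 988 and 919 in epidermis to 63.5 and 38.9 in papillomas, Slc39a10 and Mtf1 sit higher in papillomas, and Slc30a1 is nearly level.

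A single CWO application changed no member past the threshold in normal epidermis. The nearest was Mt2, with a mean of 832 ± 94.7 FPKM after CWO against 517 ± 64.9 with vehicle (SD, n = 3 each), 1.61 times the vehicle mean. Its log2 fold change was 0.69 (SE 0.146, 95% interval 0.35 to 1.02), with limma's adjusted p = 0.0654 over all genes, and its groups did not overlap. Mt1, its neighbour, had 679 ± 153 against 543 ± 86.6 FPKM (log2 fold change 0.31, interval -0.14 to 0.76, adjusted p = 0.546) with overlapping groups.

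limma's moderated test was run on log2(FPKM + 1), a scale that understates changes of low genes, and a gene was called at a Benjamini-Hochberg adjusted p under 0.05. Of the 8 members, 7 had enough signal to be tested in epidermis and 0 were called, where 1.89% of all tested genes were called. At an unadjusted p under 0.05 there were 3, Mt2, Mt3 and Slc30a1, against 1795 of 12311 tested genes. In limma-voom on recovered fragments 0 members were called. The groups of the same 3 genes did not overlap, against 18.7% of all tested genes. Mt3 had 4.60 ± 0.12 against 3.28 ± 0.796 FPKM (log2 fold change 0.40, adjusted p = 0.291). Slc30a1 had 23.1 ± 2.58 against 18.7 ± 1.38 FPKM (log2 fold change 0.29, interval 0.01 to 0.57, adjusted p = 0.330). The 3 members above their vehicle range are thus Mt2, Mt3 and Slc30a1, none past the adjusted threshold, while Mt1 and Mt4 overlapped with vehicle. Mt4 (log2 fold change -0.12, interval -0.50 to 0.26), Mtf1 (0.10, interval -0.19 to 0.40) and Slc39a10 (0.05, interval -0.27 to 0.37) had intervals that include 0. Slc39a4, below the filter, had 0.70 ± 0.200 against 0.426 ± 0.198 FPKM (exact permutation test, two-sided, p = 0.2, where the smallest possible p is 0.1).

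Mt2 was called when all 12 libraries shared 1 estimate of spread (log2 fold change 0.69, adjusted p = 0.0149), and in none of the other 15 alternatives, where the log2 fold change lay between 0.55 and 0.78. Without the muscle-rich vehicle libraries 1 and 2 it was 0.65 (adjusted p = 0.564), a value that rests on 1 vehicle library. Summed sebaceous gland markers, all 10 at an FPKM of 1 or more, were also higher without overlap, at 3536 to 4028 FPKM with CWO against 2571 to 2928. Of the 10 genes 1 rose (Elovl3, log2 fold change 1.78) and 1 fell (Scd3, -1.95). Of 8 tested fibroblast and dermal matrix markers 1 fell (Col1a1, log2 fold change -1.28, adjusted p = 0.0479) and 0 rose, with a median of -0.96. An unadjusted p under 0.05 was found for 6 of them, against 1795 of 12311 tested genes. These marker genes are named as the called ones, after their values were seen. Summed neutrophil markers were at 195 to 312 against 77.1 to 157. Elane and Ngp were at 0 in every epidermis library, and 2 to 4 of the 7 genes were at an FPKM of 1 or more. The list includes S100a8 and S100a9, which inflamed keratinocytes also make, and S100a9 was called higher (log2 fold change 1.84). This sum is therefore not particular to neutrophils. The part of these marker lists in the Mt2 values was not tested. The authors' deposited table for epidermis lists 176 genes, none of them a member, and its highest adjusted p is 0.00544, so absence from it does not mean an adjusted p above 0.05.

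After 6 weeks of CWO, papillomas likewise showed no member past the threshold. Mt4 had the largest difference, 38.9 ± 14.5 FPKM with CWO against 63.5 ± 15.2 with vehicle (SD, n = 3 each), 0.612 times the vehicle mean. Its log2 fold change was -0.73 (SE 0.273, interval -1.36 to -0.09), with limma's adjusted p = 1.00, and CWO library 2 (55.1 FPKM) lay above vehicle library 1 (46.0 FPKM). Only 0.575% of tested genes had a lower log2 fold change. Mt1 (0.08, interval -0.19 to 0.35) and Mt2 (0.12, interval -0.17 to 0.40) were nearly level.

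Of the 8 members, 6 could be tested in papillomas, Mt3 and Slc39a4 being below the filter. Of these 0 were called, where 0.00821% of all tested genes (1 gene) were called. Only 1, Mt4, had an unadjusted p under 0.05, against 306 of 12179 tested genes, and limma-voom called 0 members. None of the 6 had groups that did not overlap, against 6.61% of all tested genes. Slc39a10 had a log2 fold change of -0.27 (interval -0.68 to 0.13), Mtf1 of -0.04 (interval -0.23 to 0.16) and Slc30a1 of 0.02 (interval -0.28 to 0.33). The authors' deposited table for papillomas lists all 8 members, each with an adjusted p of 1. For Mt4 that table gives mean signals of 129 with CWO and 211 with vehicle, and a log2 fold change of -0.71. It gives 0.697 and 3.38 for Mt3, the lowest member, and 2040 and 1916 for Mt1.

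The CWO effects in the 2 tissues were also compared directly, as papilloma effect minus epidermis effect in 1 limma fit of all 12 libraries. All 7 tested members had a negative difference, from -0.71 to -0.14, and 0 of 7 were called, where 0.718% of all tested genes were called. Mt2 had a difference of -0.57 (SE 0.195, interval -0.996 to -0.145, adjusted p = 0.299), Mt3 of -0.71 (adjusted p = 0.455) and Mt4 of -0.60 (adjusted p = 0.645). Mt2 and Mt3 had an unadjusted p under 0.05, as did 1307 of 13224 tested genes, and limma-voom called 0 members. Mt3 met the filter through its epidermis libraries, and its papilloma values rest on at most 6 fragments. Its difference ranged from -1.80 to -0.41 over the alternatives. The median over all genes tested was -0.04, so a negative difference was the commoner sign among them. Of all tested genes, 32.8% had a lower difference than Mtf1, the member nearest 0. The members share the same libraries, so their signs are not separate observations.

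**Figure D3:**
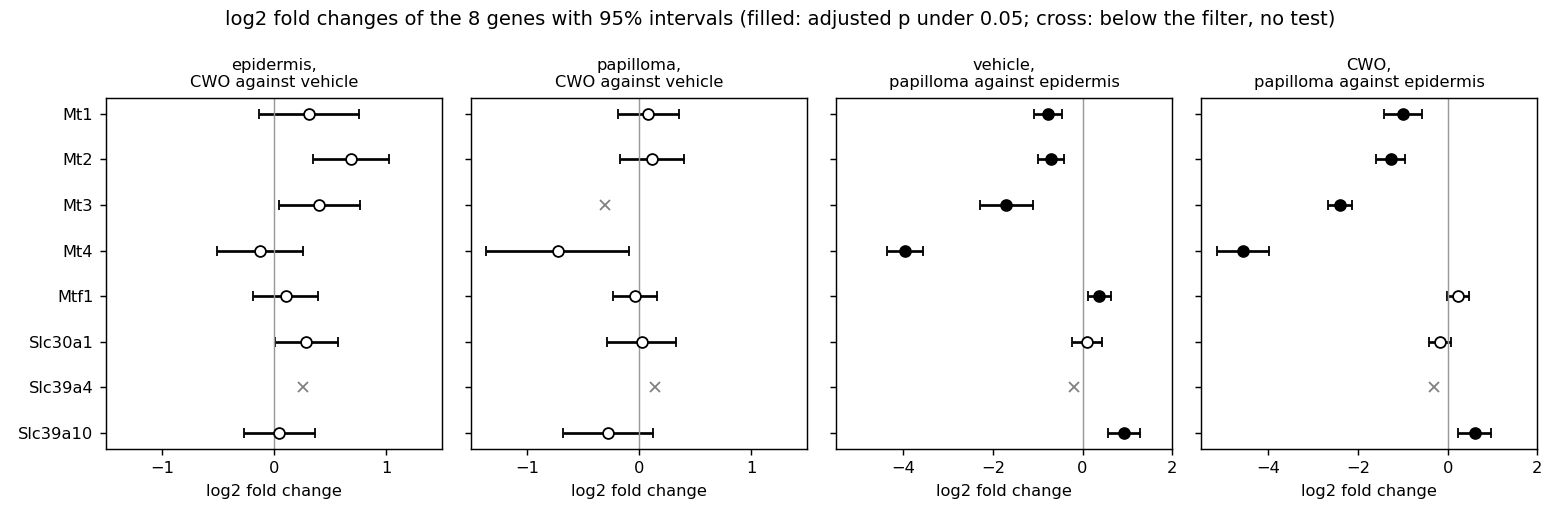
log2 fold changes of the 8 genes (horizontal axis, log2 units; the papilloma against epidermis panels use a wider range) in 4 comparisons, with bars for the 95% interval from limma, filled circles for an adjusted p under 0.05, open circles otherwise and crosses for genes below the filter. No member is filled for CWO against vehicle, while 6 are filled under vehicle and 5 under CWO between tissues, with Mt4 at -3.97 and -4.57.

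Between tissues, Mt1, Mt2 and Mt4 were lower in papillomas than in epidermis under vehicle, Mt4 most of all. Mt3 was lower too, but near the floor in papillomas. Mt4 averaged 63.5 ± 15.2 FPKM in papillomas against 988 ± 13.3 in epidermis (SD, n = 3 each), 15.5-fold lower (log2 fold change -3.97, SE 0.173, limma adjusted p = 1.04e-06). Of all tested genes, 0.647% had a lower log2 fold change. Mt1 averaged 316 ± 17.7 against 543 ± 86.6 FPKM (log2 fold change -0.77, adjusted p = 0.00107), and Mt2 316 ± 31.7 against 517 ± 64.9 FPKM (-0.70, adjusted p = 0.00155). Slc39a10, a zinc importer, went the other way, at 14.8 ± 2.65 against 7.28 ± 1.07 FPKM, 2.03-fold higher (log2 fold change 0.93, adjusted p = 0.00085).

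In this comparison 6 of the 7 tested members were called, 2 higher and 4 lower, where 69.9% of all tested genes were called, 31.7% higher and 38.2% lower. Mt3, among the 4 lower, passed the filter only through the epidermis libraries, where it was high. Its call is therefore no separate support for a difference. The groups of the 6 called members did not overlap, against 74.4% of all tested genes. A call or a separation is therefore ordinary here, and it is the size of the Mt4 difference that few genes match. Mt3 had a log2 fold change of -1.70 (adjusted p = 0.000494), which depended on the pseudocount: it was -3.48 with 0.1 and -0.90 with 3. Without any 1 of the vehicle epidermis libraries Mt3 no longer met the filter of 3 libraries, and so had no call, with log2 fold changes of -1.55 to -1.78. Mtf1, at 6.38 ± 0.054 against 4.71 ± 0.377 FPKM, had 0.37 (interval 0.12 to 0.62, adjusted p = 0.0152).

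The Mtf1 call was lost without vehicle epidermis library 1 (log2 fold change 0.32, adjusted p = 0.0621), without vehicle papilloma library 1 (0.37, adjusted p = 0.0526) and without vehicle papilloma library 2 (0.38, adjusted p = 0.0504). Slc30a1 was not called (0.10, interval -0.24 to 0.43). Slc39a4, below the filter, averaged 0.240 ± 0.117 against 0.426 ± 0.198 FPKM (exact permutation test, two-sided, p = 0.3). Without the muscle-rich vehicle epidermis libraries 1 and 2, the log2 fold changes were -3.95 for Mt4, -0.57 for Mt1, -0.74 for Mt2 and 0.72 for Slc39a10, all still called, and Mtf1 was not called (0.29, adjusted p = 0.112).

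Marker lists of other cell types also separated the tissues. Sebaceous gland markers summed to 2571 to 4028 FPKM in epidermis and 208 to 497 in papillomas, and T cell markers to 93.3 to 137 against 4.91 to 11.5, over 10 and 8 genes. Fibroblast and dermal matrix markers summed to 147 to 201 FPKM in epidermis and 419 to 686 in papillomas, over 10 genes. Adipocyte markers summed to 46.5 to 430 against 4268 to 5210 FPKM, but nearly all of the papilloma sum was Fabp4, and 1 to 4 of the 7 genes reached 1 FPKM there, against 5 to 7 in epidermis. Neutrophil markers, mostly S100a8 and S100a9, summed to 77.1 to 312 against 9637 to 16832 FPKM, with 4 of 7 genes at 1 FPKM or more in papillomas. Their part in the metallothionein values was not tested. Summed keratinocyte markers overlapped between the tissues, at 25837 to 33274 FPKM in epidermis and 30816 to 40244 in papillomas, but single markers differed: under vehicle 2 of 8 were higher in papillomas and 2 lower, with log2 fold changes from -2.10 to 2.46.

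Under CWO Mt1, Mt2 and Mt4 were again lower in papillomas, with Mt3 near the floor there, and Slc39a10 was higher. Mt4 averaged 38.9 ± 14.5 FPKM in papillomas against 919 ± 182 in epidermis (SD, n = 3 each), 23.6-fold lower (log2 fold change -4.57, SE 0.254, limma adjusted p = 2.21e-06). Mt2 averaged 344 ± 49.3 against 832 ± 94.7 FPKM, 2.42-fold lower (-1.27, adjusted p = 8.31e-05), and Mt1 337 ± 49.1 against 679 ± 153 FPKM, 2.02-fold lower (-0.995, adjusted p = 0.00157). Slc39a10 averaged 12.1 ± 2.72 against 7.52 ± 0.59 FPKM, 1.61-fold higher (0.60, adjusted p = 0.0090). The 2 tissue comparisons use different libraries, and the change in the tissue difference between treatments is the same quantity as the difference of CWO effects, in which no member was called.

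Here 5 of the 7 tested members were called, 1 higher and 4 lower, where 68.7% of all tested genes were called, 29.1% higher and 39.6% lower. Mt3, among the 4 lower, again passed the filter only through the epidermis libraries, so its call is no separate support. Groups did not overlap for 6 of the 7, against 74% of all tested genes. Mt3 had a log2 fold change of -2.40 (adjusted p = 1.08e-06), -5.06 with a pseudocount of 0.1 and -1.31 with 3, and no call without any 1 of the CWO epidermis libraries, again through the filter. Mtf1 had 0.23 (interval -0.02 to 0.49, adjusted p = 0.0943) and was called under median-ratio scaling, quantile normalization, limma-voom and the fit of all 12 libraries. Slc30a1 had -0.17 (interval -0.42 to 0.08). Slc39a4, below the filter, averaged 0.369 ± 0.014 against 0.70 ± 0.200 FPKM, without overlap (exact permutation test, two-sided, p = 0.1, the smallest possible). In this comparison median-ratio scaling moved the median of all genes by 0.107 on the log2 scale, and the called members kept their direction under it.

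Mt1 and Mt2 kept close to a 1 to 1 level. The ratio of Mt1 to Mt2 was 1.11, 1.17 and 0.885 in vehicle epidermis, 0.797, 0.916 and 0.717 with CWO, 1.05, 0.949 and 1.01 in vehicle papillomas and 0.900, 0.962 and 1.08 with CWO. All 3 CWO epidermis libraries had more Mt2 than Mt1, but vehicle library 3 did as well, and the groups overlapped. The log2 ratio differed by -0.38 between CWO and vehicle epidermis (exact permutation test, two-sided, p = 0.2, adjusted p = 0.4 over 4 comparisons). Between CWO and vehicle papillomas it differed by -0.03 (exact p = 0.8, adjusted p = 0.8), between tissues under vehicle by -0.07 (exact p = 0.7, adjusted p = 0.8) and between tissues under CWO by 0.28 (exact p = 0.2, adjusted p = 0.4). Mt1 and Mt2 have similar coding sequences, and how reads matching both were shared out is not given in the sources used here. Relative to Mt1 and Mt2 together, Mt4 was at 0.458 to 1.02 in epidermis and at 0.045 to 0.120 in papillomas, so the balance within the cluster differed between tissues, without overlap.

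**Figure D4:**
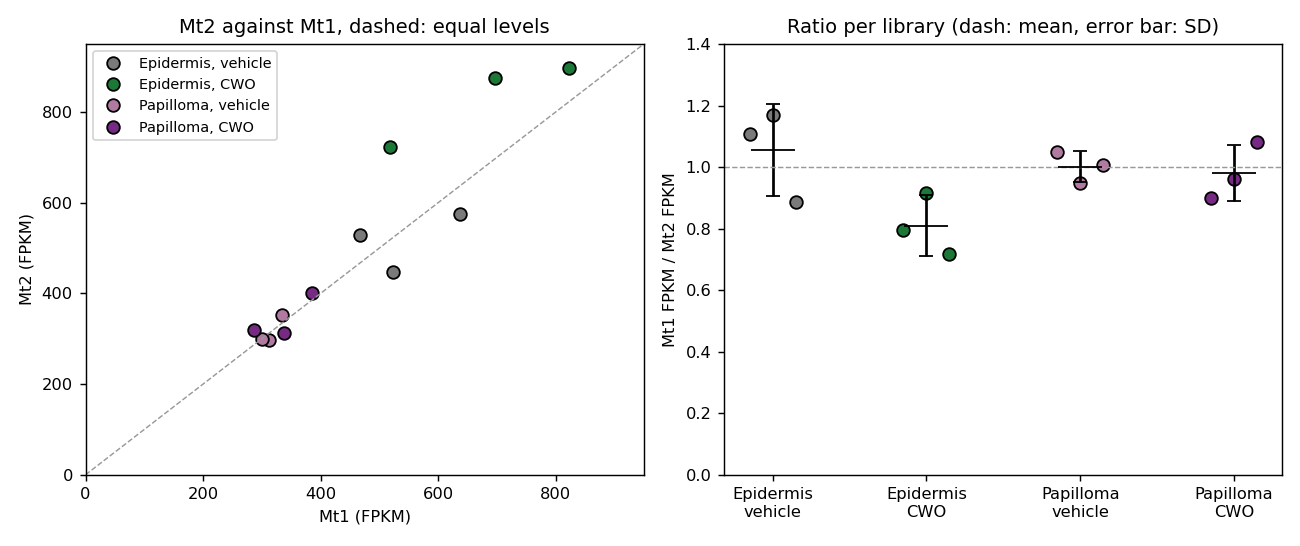
Left, Mt2 against Mt1 (both axes FPKM) in the 12 libraries, with a dashed line of equal levels; right, the ratio of Mt1 to Mt2 (vertical axis) by group, with points for libraries, dashes for means and error bars for SD. The 3 CWO epidermis libraries lie on the Mt2 side of the line, with ratios of 0.717 to 0.916, and the 6 papilloma libraries cluster near it.

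The wider families of zinc transporters were read for context, with 10 Slc30a exporters (ZnT) and 14 Slc39a importers (ZIP), members included. In epidermis limma called 0 of 7 tested exporters for CWO (1 at an unadjusted p under 0.05, 0 with limma-voom), and 1 of 11 importers rose and 0 fell (3 at an unadjusted p under 0.05, 0 with limma-voom), where 1.89% of all tested genes were called. The riser was Slc39a6, a plasma membrane importer, at 47.8, 51.0 and 48.5 FPKM with CWO against 31.8, 29.6 and 37.2 with vehicle (log2 fold change 0.57, limma adjusted p = 0.0495). That call held in 4 of 16 alternatives and was lost without vehicle epidermis library 1 or 2 or any 1 CWO library. The medians were 0.07 for exporters and 0.05 for importers, against 0.02 for all genes tested. Shares of all tested genes at the unadjusted threshold, given above for each tissue, apply to these counts too. In papillomas limma called 0 of 6 exporters and 0 of 11 importers, with 0 at an unadjusted p under 0.05 and 0 with limma-voom (medians -0.01 and -0.04, all genes -0.01).

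Between tissues the importers split in both directions. Under vehicle 2 of 6 tested exporters were higher and 0 lower in papillomas, and 4 of 11 importers were higher and 4 lower, with medians of 0.10 and -0.04 against -0.07 for all genes tested. The importer Slc39a14, which also carries manganese and iron, measured 8.54, 7.51 and 7.41 FPKM in papillomas against 2.25, 1.55 and 2.34 in epidermis (log2 fold change 1.54, adjusted p = 3.74e-05). Slc39a11 went the other way, at 7.65, 11.3 and 9.14 FPKM against 27.9, 30.6 and 36.1 (-1.66, adjusted p = 3.9e-05). Neither pair of groups overlapped. Slc39a3 (-1.46) and Slc39a8 (-0.87), an importer of zinc, manganese and cadmium, were also lower, and the exporters Slc30a4 (0.84) and Slc30a7 (0.66) higher.

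Under CWO 2 of 6 exporters were higher and 1 lower in papillomas, and 2 of 11 importers were higher and 4 lower (medians -0.01 and -0.23, all genes -0.11). Slc39a14 (1.45) and Slc39a10 were the higher importers, and the lower ones included Slc39a11 (-1.86), Slc39a8 (-1.46) and Slc39a3 (-1.41). The exporters Slc30a4 (0.75) and Slc30a7 (0.53) were higher. Slc30a9 was lower (-0.28, adjusted p = 0.0242), a call lost in 8 of 15 alternatives, both rescalings and the loss of any 1 papilloma library or of CWO epidermis library 1 or 2 among them. The tissue shares of called genes given above apply to these counts too.

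**Figure D5:**
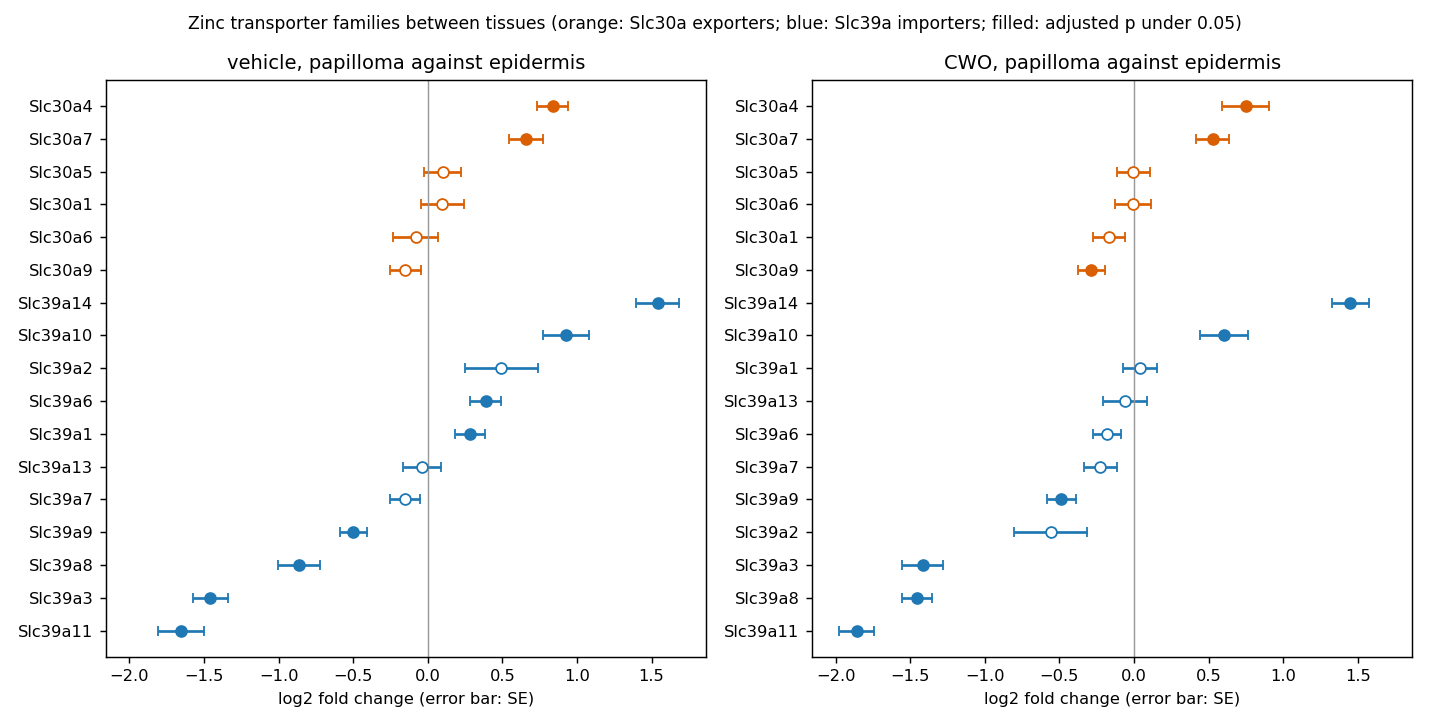
log2 fold changes, papilloma against epidermis (horizontal axis, error bars SE from limma), of the tested zinc exporters (Slc30a, orange) and importers (Slc39a, blue) under vehicle and under CWO, filled where the adjusted p is under 0.05. Slc39a14 and Slc39a10 stand at the upper end of the importers under both treatments and Slc39a11 at the lower end, at -1.66 and -1.86.

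Genes with the pattern most like Mt1, Mt2 and Mt4 were sought among 12069 genes, by the root mean square difference of log2(FPKM + 1) after centring each gene on its own mean over the 12 libraries. For Mt2 they were Cdkn2d (0.097), Psme1 (0.115), Psmb10 (0.133), Tmem139 (0.160) and Tnfaip8l1 (0.163), with Mt1 in place 19. For Mt1 they were Atp5j2 (0.142), Nde1 (0.148), Uqcrq (0.149), Vim (0.149) and Acot8 (0.149), with Mt2 in place 85 at 0.193. For Mt4 they were Nkg7 (0.270), Gpr125 (0.270), Agpat4 (0.282), Cd82 (0.306) and Il1f10 (0.311). Mt3 came in place 511 for Mt4, and Mt1 and Mt2 in places 2354 and 2140. This distance counts the size of a gene's differences as well as their order. Mt4 had a root mean square of 2.17 about its own mean, against 0.493 for Mt1 and 0.570 for Mt2. Neither could therefore come near Mt4, and these places do not show whether the order of libraries is shared. The libraries are shared by all genes, and these distances are a description with no test.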

How the data were processed

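PolyA RNA was sequenced by the submitters in 12 libraries, 3 per group. Per the submitters' processing notes, bcl2fastq 1.8.4, TopHat2 2.0.4, Cufflinks 2.0.2, DESeq and the mm9 build were used. The deposited per-library files hold FPKM per gene with an interval and a status. The authors' comparison tables hold the mean signal of a group, the ratio (fold) of the groups, the log2 of that ratio and a p-value, per the file headers.

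FPKM that Cufflinks did not mark OK were treated as missing, and entries of 1 symbol were summed. Fragment numbers were recovered from FPKM and its interval, read as 2 standard deviations of the count. Between 68.2% and 69.5% of small recovered values per library were whole within 0.02. Low fragment numbers limit Mt3 and Slc39a4. File starts are 0-based and were printed 1-based.

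R 4.3.3 and limma 3.58.1 (eBayes with trend) were used. The model was fitted to log2(FPKM + 1) of the groups compared, for genes that reached 1 FPKM in 3 or more fitted libraries and had 2 or more values per group. Tests were two-sided, and p-values adjusted by Benjamini-Hochberg under 0.05 were called. Genes below the filter and the Mt1 to Mt2 ratio had an exact permutation test. The procedure was tested on simulated data, with 50 genes, drawn from those well above the filter, changed at each size. For CWO in epidermis it called 10% of log2 changes of 0.5 and 76% of changes of 1. For CWO in papillomas it called 46% and 80%. Changes of 0.5, 1, 2 and 4 were made in the same simulated data, which eases the adjusted threshold for the smaller ones. In the real papilloma comparison only 1 gene was called, so these shares may overstate what could be called there. A member without a call may therefore still have changed by such amounts. The members, gene lists and tests were chosen with earlier results of these data known. All 8 members are described; other transporters are named, at most 4 per list and comparison, where called. Where labels name no separate animals, p-values measure only the spread between samples.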

Additional observations from a re-analysis of the deposited data

How the results depend on the processing

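The alternatives were pseudocounts of 0.1 and 3, no filter, median-ratio scaling, quantile normalization, values used without regard to status, limma-voom on fragments, a replicate block, all 12 libraries in 1 fit, each library left out, and the muscle-rich vehicle epidermis libraries 1 and 2 left out. For CWO against vehicle, 0 members were called in papilloma and 0 in the difference of effects under every alternative; in epidermis the fit of all 12 libraries called 1, Mt2, and the others 0. Between tissues the calls ranged from 4 to 6 members under vehicle (6 reported) and from 4 to 6 under CWO (5 reported). Mt1, Mt2, Mt4 and Slc39a10 were called in both tissue comparisons under every alternative run.

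The labels number the replicates in each group but do not tie them. Deviations of same-numbered libraries correlated at 0.0195, -0.413 and -0.333 in epidermis and 0.261, 0.151 and 0.0297 in papilloma, so the numbers were not taken to pair samples. With the replicate block 0 members were called for CWO in epidermis, 0 in papilloma, 0 in the difference, 5 between tissues under vehicle, where Mtf1 was lost (adjusted p = 0.0578), and 5 under CWO.

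Only differences near 0 changed sign. In epidermis Slc39a10 (log2 fold change 0.05) was -0.000959 with limma-voom, -0.16 without both muscle-rich libraries, and -0.011 to 0.15 with 1 library left out; Mt4 (-0.12) ranged from -0.25 to 0.041. In papilloma, with 1 library left out, Slc30a1 (0.02) ranged from -0.13 to 0.11, Mt1 (0.08) from -0.020 to 0.19 and Mtf1 (-0.04) from -0.076 to 0.000165. The difference of effects for Slc39a4 (-0.11) was 0.11 without both muscle-rich libraries. The log2 Mt1 to Mt2 ratio ranged from -0.10 to 0.027 in papilloma (0.00126 without vehicle library 1), from -0.19 to 0.015 between tissues under vehicle, from -0.50 to -0.29 in epidermis and from 0.20 to 0.37 between tissues under CWO. The cause was not tested.

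Over all genes, calls ranged from 11 to 653 in epidermis (233 reported), 0 to 5 in papilloma (1 reported), 17 to 330 for the difference (95 reported), 7203 to 9456 between tissues under vehicle (8958) and 7356 to 9480 under CWO (8737). The lowest epidermis count came without both muscle-rich libraries and the highest without vehicle library 3. At 3 libraries a group, and 0 to 33 fragments a library, small differences in Mt3 and Slc39a4 were not detectable.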

Other observations

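Copper, which metallothioneins also bind, has its own handling genes, and 9 of these were listed. For CWO limma called 0 of 8 tested in either tissue, and limma-voom called 0. At an unadjusted p under 0.05 there were 2 in epidermis, against 1795 of 12311 tested genes, and 0 in papilloma, against 306 of 12179. Between tissues under vehicle 2 of 8 were higher and 3 lower in papillomas, with a median log2 fold change of -0.21 against -0.07 for all genes tested, of which 31.7% were higher and 38.2% lower. Atp7a, a copper pump, averaged 16.8 ± 1.66 against 7.31 ± 1.62 FPKM (SD, n = 3; 1.11, limma adjusted p = 0.000333). Cox17, which carries copper to mitochondria, averaged 71.3 ± 6.01 against 172 ± 22.7 FPKM (-1.25, adjusted p = 4.48e-05). Under CWO 2 of 8 were higher and 5 lower, Atp7a (0.78) and Cox17 (-1.07) among them, where 29.1% of all tested genes were higher and 39.6% lower.

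S100a8 and S100a9, which form the zinc-binding protein calprotectin of neutrophils and inflamed keratinocytes, were far higher in papillomas. Of 5 listed zinc-binding S100 genes, 3 of 4 tested were higher under vehicle and 0 lower, where 31.7% of all tested genes were higher and 38.2% lower. S100a9 averaged 4908 ± 1132 against 24.2 ± 12.4 FPKM (SD, n = 3; log2 fold change 7.69, limma adjusted p = 7.73e-07). In epidermis S100a9 also rose after CWO, to 84.2 ± 17.9 FPKM (1.84, adjusted p = 0.0281), a call kept in 10 of 16 alternatives and lost with no filter on low values, with the replicate number as a block, and without vehicle library 1 or any 1 CWO library.

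Glucocorticoid-responsive genes, a class to which Mt1 and Mt2 also belong, were lower in papillomas for 6 of 8 tested and higher for 0 under vehicle, with a median of -1.84, where 38.2% of all tested genes were lower and 31.7% higher, with a median of -0.07. Tsc22d3 averaged 8.72 ± 2.8 against 109 ± 33.4 FPKM (SD, n = 3; -3.50, adjusted p = 1.32e-05) and Klf9 1.6 ± 0.241 against 9.68 ± 0.949 FPKM (-2.04, adjusted p = 5.53e-06). For CWO limma called 0 of 8 in epidermis and 0 of 6 in papilloma, and limma-voom called 0. At an unadjusted p under 0.05 there were 1 and 0, against 1795 of 12311 and 306 of 12179 tested genes. Any link between these genes and the Mt1 and Mt2 values was not tested.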
